A study of Homo sapiens with 12 samples.

Results

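The genes described here encode the enzymes of glycolysis, the carriers that bring glucose into the cell and lactate out of it, the hypoxia-inducible factors (HIFs), the prolyl hydroxylases that sense oxygen, and further genes that HIF switches on. They were chosen by symbol, as the rows of the deposited expression table whose platform annotation lists 1 of 38 gene symbols. Of 32321 rows, 39 listed such a gene, and they covered 35 of the 38. The carriers SLC16A1 and SLC16A3 and the carbonic anhydrase CA9 are not analysed here. A gene with several rows is given by its brightest row. All rows of PGAM1 also list its near-identical copy PGAM4, so that their signals cannot be told apart and the gene is written PGAM1/PGAM4.

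The study used 12 Affymetrix whole-transcript arrays. L-428 and L-1236 are established lines of Hodgkin lymphoma, a lymphoma of B-cell origin. The 4 groups were L-428 tGFP/EBF1, L-428 tGFP, L-1236 tGFP/EBF1 and L-1236 tGFP, with 3 arrays each that the design text calls independent samples. Cells of the EBF1 groups were transduced with a vector named tGPF-IRES-EBF1, which carries the green fluorescent protein tGFP and EBF1, a transcription factor of early B-cell development, and control cells were transduced with tGFP alone. All groups were cultured for 8 days and sorted for tGFP, so that every group, controls included, had been transduced and expressed the fluorescent protein. Each line is 1 cell line, the promoter of the vector is not given in the sources used here, and the labels name no low-oxygen treatment.

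Values are log2 signals as the authors deposited them. The base of the logarithm is not stated and was taken from the values, which reached 14.3. Signals of different probe sets are not compared with each other, and because bulk RNA was measured, fewer cells that express a gene and less RNA of it per cell cannot be told apart. The EBF1 row, which also lists PDGFRB, averaged 12.96 ± 0.027 in L-428 tGFP/EBF1 cells and 8.45 ± 0.16 in L-428 tGFP cells (SD, n = 3 each), a 22.8-fold difference. In L-1236 it averaged 13.15 ± 0.11 in tGFP/EBF1 cells and 7.17 ± 0.057 in tGFP cells, a 62.8-fold difference. Array medians lay between 7.19 and 7.31. Replicate 3 of L-428 tGFP stood apart, with an interquartile range of 2.28 against 2.49 and 2.47 on the other arrays of its group, and replicate 1 of L-1236 tGFP/EBF1 had 2.17 against 2.31 and 2.26. In the order of groups given above, the Hodgkin marker TNFRSF8 had group means of 10.42, 10.38, 10.08 and 9.57, and IRF4 of 11.93, 11.93, 11.95 and 11.76. The T-cell marker CD3E lay between 6.28 and 6.54, the monocyte marker CD14 between 6.73 and 6.90 and the erythroid marker HBB between 6.72 and 6.82. The B-cell marker MS4A1 lay between 5.86 and 5.89 and the fibroblast marker COL1A1 between 7.81 and 7.91. The Hodgkin markers FUT4 (8.76, 8.84, 8.82 and 9.04) and CCL17 (9.16, 9.16, 8.25 and 8.11) were also measured. With EBF1 in L-1236, TNFRSF8 was higher by 0.51 (limma, adjusted p = 6.54e-05) and FUT4 changed by -0.22 (limma, adjusted p = 0.0349), and the part of cell state in the results below was not tested.

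Glycolysis splits glucose into pyruvate. Hexokinases trap glucose in the cell, phosphofructokinase commits it to the pathway, and lactate dehydrogenase turns pyruvate into lactate when the mitochondria do not take it up. When oxygen is scarce, the prolyl hydroxylases EGLN1 and EGLN3 no longer mark the subunits HIF1A and EPAS1 for destruction, and these pair with ARNT and raise the transcription of glycolytic enzymes and of genes such as VEGFA, BNIP3 and P4HA1. Because that control acts on the HIF protein, the mRNA of HIF1A does not by itself report HIF activity. Hodgkin cells, like many tumour cells, take up much glucose.

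Promoter windows of 4 genes with different responses are shown, since HIF and EBF factors bind known core sequences and SLC2A1 and PFKM were higher with EBF1 in L-1236, LDHA was lower there, and ANKRD37 was lower in L-428. The windows are RefSeq sequences of build GRCh38.p14, 300 bases long, each running past the annotated transcript start. Capitals mark matches to the HIF core ACGTG or GCGTG on either strand, or to the EBF core CCCNNGGG, which reads alike on both strands. A HIF core within CACGTG is at the same time an E-box, the site of other factors. PFKM lies at chr12:48105623-48105922 on the plus strand, SLC2A1 at chr1:42958819-42959118 on the minus strand, LDHA at chr11:18394313-18394612 on the plus strand and ANKRD37 at chr4:185396591-185396890 on the plus strand.
PFKM: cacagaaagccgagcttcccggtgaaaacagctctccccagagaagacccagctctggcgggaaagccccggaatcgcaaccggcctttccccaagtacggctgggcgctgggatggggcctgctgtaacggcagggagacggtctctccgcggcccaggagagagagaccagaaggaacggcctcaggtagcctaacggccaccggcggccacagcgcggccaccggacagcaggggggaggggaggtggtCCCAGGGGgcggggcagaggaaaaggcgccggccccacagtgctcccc
SLC2A1: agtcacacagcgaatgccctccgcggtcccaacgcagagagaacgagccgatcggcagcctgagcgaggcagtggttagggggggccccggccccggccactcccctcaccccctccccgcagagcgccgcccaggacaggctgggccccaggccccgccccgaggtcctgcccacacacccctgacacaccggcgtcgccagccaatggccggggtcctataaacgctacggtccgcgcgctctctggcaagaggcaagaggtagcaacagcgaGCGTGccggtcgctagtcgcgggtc
LDHA: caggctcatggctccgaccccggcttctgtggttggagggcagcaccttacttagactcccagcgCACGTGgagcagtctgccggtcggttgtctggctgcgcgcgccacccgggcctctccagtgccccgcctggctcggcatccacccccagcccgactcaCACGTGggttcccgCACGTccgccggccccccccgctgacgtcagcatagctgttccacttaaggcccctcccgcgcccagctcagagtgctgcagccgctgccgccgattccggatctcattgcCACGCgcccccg
ANKRD37: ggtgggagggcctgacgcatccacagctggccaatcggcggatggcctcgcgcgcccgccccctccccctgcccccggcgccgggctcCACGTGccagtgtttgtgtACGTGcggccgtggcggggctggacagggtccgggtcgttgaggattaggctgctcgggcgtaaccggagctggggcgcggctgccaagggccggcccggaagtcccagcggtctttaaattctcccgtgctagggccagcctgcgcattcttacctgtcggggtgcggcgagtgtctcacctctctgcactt
The PFKM window held the EBF core CCCAGGGG from 2 bases after the start and no HIF core. SLC2A1 had 1 HIF core, 25 bases after the start. LDHA had 4, at 185, 87 and 73 bases before and 38 after the start, and the first 2 of these were CACGTG. ANKRD37 had 2, at 162 bases before the start, again CACGTG, and at 143 before. PFKM has 7 windows in the table, of which 4 held an EBF core and 2 a HIF core. Because neighbouring windows overlap, the 4 share the same EBF core and the 2 the same HIF core. HK1 also has 7, of which 2 held a HIF core and 0 an EBF core. The windows shown for SLC2A1, LDHA and ANKRD37 held no EBF core. EBF cores also lay in windows of genes not called with EBF1, among them HK2, PFKP and PKM, and of PFKFB4, which fell in L-1236. The table matched 33 of the 38 genes. Over their 61 windows, 67.2% held a HIF core and 23.0% an EBF core, against 48.4% and 19.1% of all 35116 windows. Overlapping windows that hold the same site were counted separately, and windows of SLC16A3 and CA9 are included. Genes were listed partly because they are HIF targets, so a larger share with a HIF core is no separate result. The shares were not tested. These matches are letters only, and no binding was measured.

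The first comparison asked how EBF1 altered the genes in L-1236. Here 3 of the 35 genes rose, namely the glucose carrier SLC2A1, the hexokinase HK1 and the phosphofructokinase PFKM, each by 1.5-fold to 1.71-fold. Another 5 fell, namely LDHA, the regulator PFKFB4, both HIF alpha subunits HIF1A and EPAS1, and the mitophagy receptor BNIP3L. A gene was called at a limma adjusted p of 0.05 or less, a limit that 3.69% of the 20546 tested rows passed upward and 5.95% downward. The median change of the 35 genes was -0.08, beside 0.0080 over all tested rows. Most of the 35 are bright rows, and with dim rows left out the median over rows was -0.016. Dim rows are those with no group mean above the median of all values. Without them 742 rows were called higher and 1305 lower, of fewer rows tested, beside 759 and 1222 of all tested rows. None of the 35 reached the study's further limit of a 2-fold change, which 0.0876% of rows passed upward and 0.0584% downward, whereas 4 genes were higher and 11 lower at an unadjusted p under 0.05 in limma, a limit that 8.27% of all tested rows passed upward and 12.5% downward.

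Of the carriers, SLC2A1 (GLUT1), which brings glucose into most cells, had log2 signals of 11.40, 11.52 and 11.39 in L-1236 tGFP/EBF1 cells, against 10.85, 10.83 and 10.88 in L-1236 tGFP cells. Every EBF1 array lay above every control array, and the gene was 1.5-fold higher (log2 change 0.58, limma, adjusted p = 6.78e-05). SLC2A3 (GLUT3), a high-affinity carrier, had a log2 change of -0.02 with a 95% confidence interval from -0.17 to 0.12.

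HK1, the hexokinase of most tissues, had 8.75, 8.82 and 8.76 in L-1236 tGFP/EBF1 cells, against 8.04, 8.13 and 7.92 in L-1236 tGFP cells. The groups were well apart, with a 1.68-fold rise (log2 change 0.75, limma, adjusted p = 4.08e-07). HK2, the isoform that HIF induces, changed by 0.03 (95% interval -0.12 to 0.17). PFKM, the muscle-type isoform of phosphofructokinase, had 9.96, 10.28 and 10.10 in L-1236 tGFP/EBF1 cells, against 9.44, 9.28 and 9.29 in L-1236 tGFP cells. It rose 1.71-fold without overlap (log2 change 0.78, limma, adjusted p = 1.18e-06). The liver-type and platelet-type isoforms were not called, with log2 changes of -0.01 for PFKL and -0.12 for PFKP. At each of these steps 1 carrier or isoform was called and the others measured were not.

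PFKFB4 makes and breaks down fructose-2,6-bisphosphate, the activator of phosphofructokinase. It had 7.40, 7.31 and 7.39 in L-1236 tGFP/EBF1 cells, against 7.68, 7.64 and 7.52 in L-1236 tGFP cells, a fall of 0.25 on the log2 scale (log2 change -0.25, limma, adjusted p = 0.024). Its relative PFKFB3 changed by 0.15 and was not called. The call of PFKFB4 was lost when replicate 1 or 2 of L-1236 tGFP, or replicate 2 or 3 of L-1236 tGFP/EBF1, was left out, with log2 changes of -0.21, -0.23, -0.22 and -0.26. The other upper enzymes GPI, ALDOA and ALDOC were not called, with log2 changes of -0.19, -0.03 and -0.02. TPI1, which interconverts the triose phosphates, changed by -0.11 on its brighter row, whereas its second, dimmer row fell by 0.33 (limma, adjusted p = 0.0173).

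In the lower part of the pathway 1 of 9 genes was called. LDHA, the lactate dehydrogenase subunit that favours lactate, had 11.50, 11.50 and 11.54 in L-1236 tGFP/EBF1 cells, against 11.91, 11.80 and 11.78 in L-1236 tGFP cells. It fell by 0.32 on the log2 scale without overlap of arrays (log2 change -0.32, limma, adjusted p = 0.0154). The subunit LDHB, which favours pyruvate, changed by -0.12. The other genes of this group lay between -0.22 for PKM, the pyruvate kinase, and 0.09 for ENO2, an enolase. Among them PDK1, a kinase that blocks pyruvate dehydrogenase, changed by -0.16. Without replicate 1 of L-1236 tGFP, LDHA changed by -0.28 and was no longer called (limma, adjusted p = 0.0828).

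Of the 5 factors and sensors, 2 fell. HIF1A had 10.30, 10.55 and 10.49 in L-1236 tGFP/EBF1 cells, against 10.83, 10.79 and 10.87 in L-1236 tGFP cells, and no array overlapped (log2 change -0.38, limma, adjusted p = 0.00474). EPAS1 (HIF-2α) had 8.53, 8.50 and 8.62 in L-1236 tGFP/EBF1 cells, against 8.90, 8.91 and 8.72 in L-1236 tGFP cells (log2 change -0.30, limma, adjusted p = 0.0208). The arrays of EPAS1 did not overlap either, but leaving out replicate 1 or 2 of either L-1236 group ended its call, at log2 changes between -0.28 and -0.26. Their partner ARNT changed by 0.00, and the sensors EGLN1 and EGLN3 by 0.02 and -0.07.

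Among 8 further HIF targets BNIP3L (NIX), which marks mitochondria for removal, was the 1 that fell. It had 9.42, 9.51 and 9.47 in L-1236 tGFP/EBF1 cells, against 10.00, 9.93 and 9.89 in L-1236 tGFP cells (log2 change -0.47, limma, adjusted p = 0.000382). Its relative BNIP3 was also lower on every EBF1 array, at 8.68, 8.88 and 8.88 in L-1236 tGFP/EBF1 cells, against 9.18, 9.12 and 9.03 in L-1236 tGFP cells, but did not pass (log2 change -0.30, limma, adjusted p = 0.0778). KDM3A, a histone demethylase, P4HA1, a collagen prolyl hydroxylase, and ANKRD37 had log2 changes of -0.25, -0.26 and -0.13 without a call. VEGFA, the angiogenic factor, the peptide hormone ADM and NDRG1 lay between -0.02 and 0.04. The number of called genes in L-1236 was 5 without replicate 1 of L-1236 tGFP and 13 without replicate 3 of L-428 tGFP, which enters through the shared estimate of the spread.

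**Figure D1:**
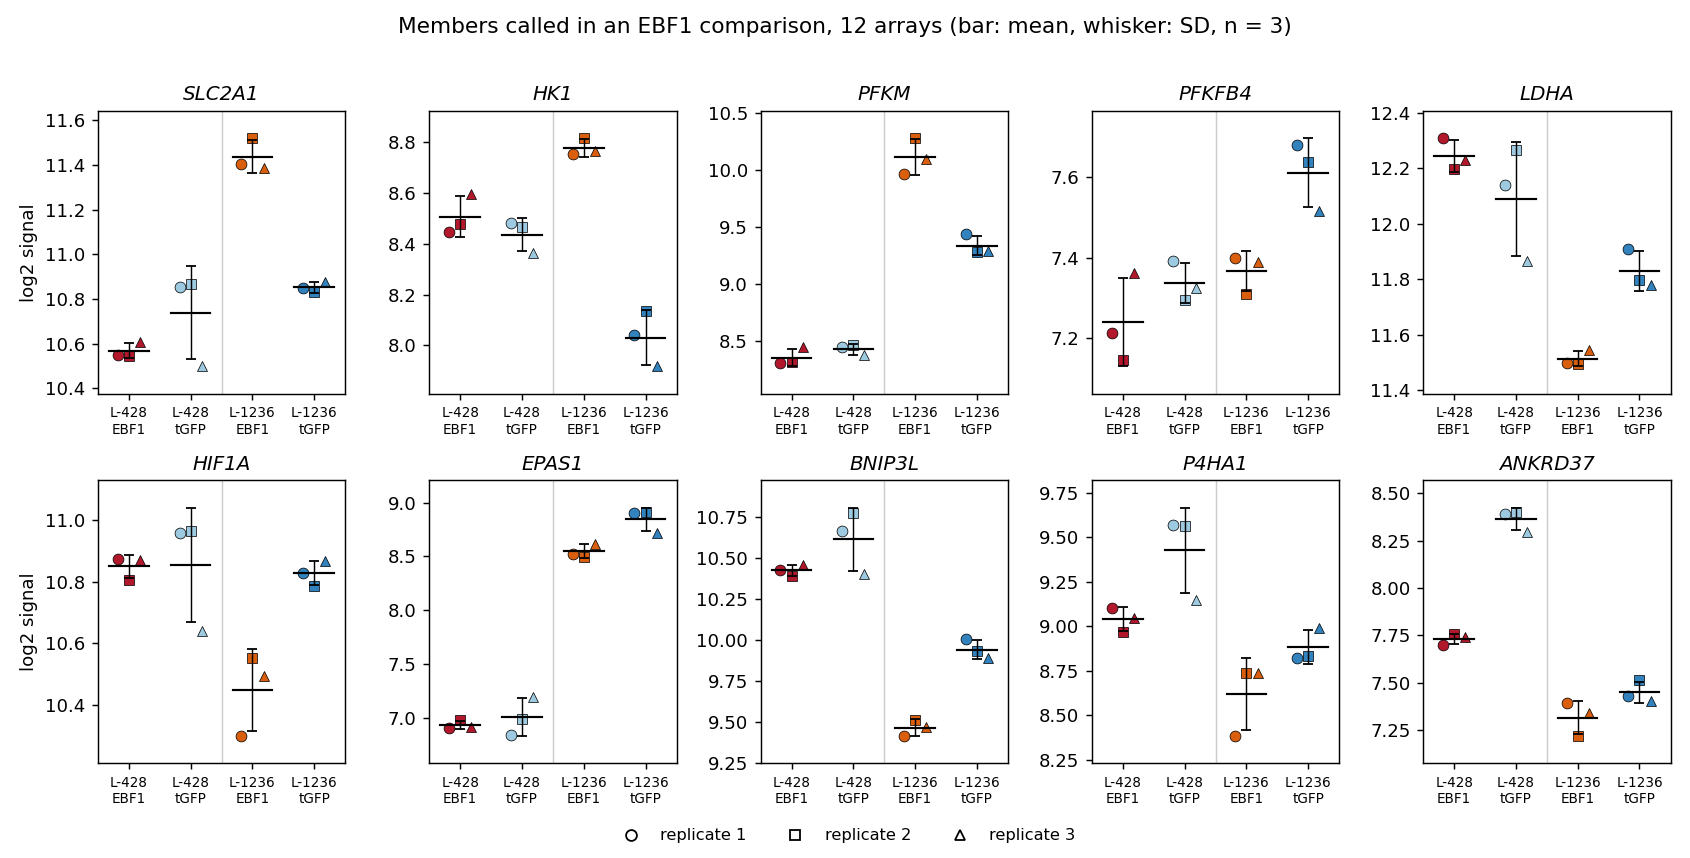
Log2 signal (vertical axis, one scale per gene) of the 10 genes called in an EBF1 comparison, on each of 12 arrays, with L-428 on the left and L-1236 on the right of each panel and EBF1 left of tGFP. Points are arrays, shaped by replicate, bars are means and whiskers SDs (n = 3). SLC2A1, HK1 and PFKM stand above their controls in L-1236 and not in L-428, and replicate 3 of L-428 tGFP lies below its group for SLC2A1, LDHA, HIF1A, BNIP3L and P4HA1.

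The same comparison in L-428 called 2 of the 35 genes, both lower with EBF1, and none higher. These were ANKRD37, a small ankyrin-repeat gene induced by HIF, and P4HA1. Over all tested rows 2.62% were called higher and 1.72% lower, and 0.0779% and 0.0195% with the 2-fold limit, which none of the 35 genes reached. The median change of the genes was -0.05, beside 0.0037 over all rows and 0.011 with dim rows left out. Without dim rows 585 rows were called higher and 385 lower, of fewer rows tested, beside 538 and 354 of all tested rows. At an unadjusted p under 0.05 in limma, 1 gene was higher and 5 were lower, beside 8.61% and 5.67% of all tested rows.

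ANKRD37 had 7.70, 7.75 and 7.74 in L-428 tGFP/EBF1 cells, against 8.39, 8.40 and 8.29 in L-428 tGFP cells. The 6 arrays formed separate groups, and the gene was 1.55-fold lower (log2 change -0.63, limma, adjusted p = 3.13e-06). P4HA1 had 9.10, 8.97 and 9.05 in L-428 tGFP/EBF1 cells, against 9.57, 9.56 and 9.15 in L-428 tGFP cells. All EBF1 arrays lay below all control arrays, and control replicate 3 lay nearest to them (log2 change -0.39, limma, adjusted p = 0.0436). The call of P4HA1 was lost without replicate 1 of L-428 tGFP (log2 change -0.31, limma, adjusted p = 0.173), without replicate 2 (-0.32, limma, adjusted p = 0.179), and without any array of L-428 tGFP/EBF1, replicate 1 or 2 of L-1236 tGFP or replicate 3 of L-1236 tGFP/EBF1, 8 single arrays in all. Without replicate 3 of L-428 tGFP it strengthened to -0.52 (limma, adjusted p = 0.00288).

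Replicate 3 of L-428 tGFP also lay low over the set as a whole. Averaged over the 35 genes, the log2 signal was 9.77, 9.76 and 9.80 in L-428 tGFP/EBF1 cells, against 9.89, 9.92 and 9.70 in L-428 tGFP cells, so that replicate 3 lay below the EBF1 arrays and the other controls above them. Over the 8 further HIF targets the means were 8.69, 8.65 and 8.70 in L-428 tGFP/EBF1 cells, against 8.96, 8.96 and 8.74 in L-428 tGFP cells, and here all EBF1 arrays were lower. In L-1236 the means of these 8 targets were 8.27, 8.36 and 8.36 in tGFP/EBF1 cells, against 8.52, 8.50 and 8.49 in tGFP cells. Their median change was -0.17 in L-428 and -0.19 in L-1236, with 2 of the 8 called in L-428 and 1 in L-1236. This does not extend to the 31 HIF targets of a separate list described below, whose medians were -0.04 and 0.02. In L-1236 the means of those 31 overlapped, at 8.29, 8.36 and 8.37 in tGFP/EBF1 cells, against 8.36, 8.33 and 8.33 in tGFP cells. Without replicate 3 of L-428 tGFP, 7 of the 35 genes were called in L-428, all lower: ANKRD37, P4HA1, BNIP3, BNIP3L, SLC2A1, PKM and TPI1. Over all rows, 2.26% were then called higher and 4.1% lower, beside 2.62% and 1.72% with all arrays. With all arrays, BNIP3 had 9.76, 9.63 and 9.69 in L-428 tGFP/EBF1 cells, against 10.11, 10.18 and 9.65 in L-428 tGFP cells, and was not called (log2 change -0.28, limma, adjusted p = 0.16).

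The 8 genes called in L-1236 had log2 changes between -0.19 and 0.15 in L-428, and none of them was called there by limma. HK1 had 8.45, 8.48 and 8.60 in L-428 tGFP/EBF1 cells, against 8.48, 8.47 and 8.36 in L-428 tGFP cells, and PFKM had 8.31, 8.31 and 8.44 in L-428 tGFP/EBF1 cells, against 8.45, 8.46 and 8.37 in L-428 tGFP cells. SLC2A1 had 10.55, 10.55 and 10.61 in L-428 tGFP/EBF1 cells, against 10.85, 10.87 and 10.50 in L-428 tGFP cells. In each of these genes the groups overlapped, and the log2 changes were 0.07, -0.07 and -0.17. LDHA had 12.31, 12.20 and 12.23 in L-428 tGFP/EBF1 cells, against 12.14, 12.27 and 11.87 in L-428 tGFP cells, a log2 change of 0.15 that was not called (limma, adjusted p = 0.424). HIF1A had 10.87, 10.81 and 10.87 in L-428 tGFP/EBF1 cells, against 10.96, 10.97 and 10.64 in L-428 tGFP cells, and its 95% interval ran from -0.18 to 0.17. BNIP3L and PFKFB4 changed by -0.19 and -0.10.

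**Figure D2:**
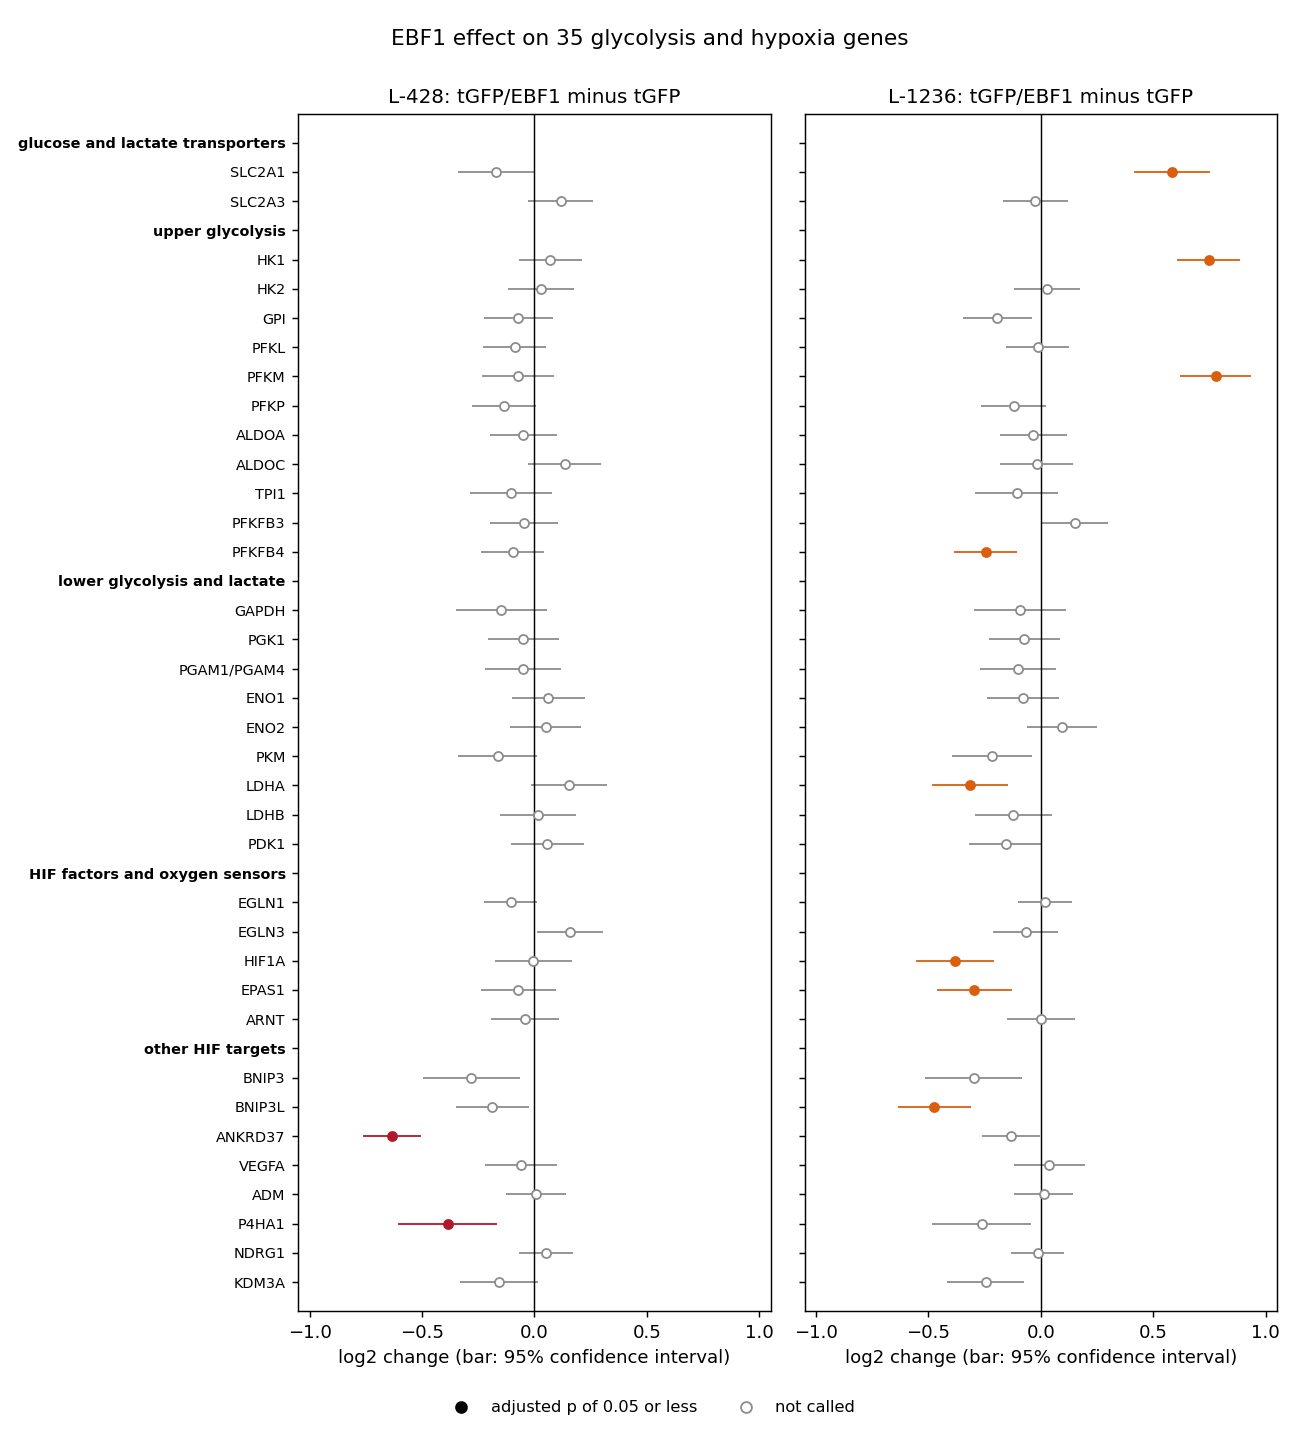
Log2 change (horizontal axis) with EBF1 against tGFP for the 35 genes, ordered by role, in L-428 (left panel) and L-1236 (right panel). Points are estimates from 3 arrays against 3, bars are 95% confidence intervals, and filled points passed an adjusted p of 0.05. Filled points number 2 in L-428 and 8 in L-1236, and all 35 lie inside a 2-fold change.

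Whether the change with EBF1 differed between the lines was tested by the difference of effects, L-428 minus L-1236. It passed for 5 of the 35 genes, 1 positive and 4 negative, while 3.38% of all rows were called positive and 1.79% negative. The EBF1 row itself differed by -1.46 (limma, adjusted p = 1.15e-07), and its control level was 1.27 higher in L-428. The part of this unequal rise of EBF1 in the differences of other genes was not tested. The 3 genes that rose in L-1236 all differed. The difference was -0.85 for PFKM (limma, adjusted p = 7.36e-05), -0.76 for SLC2A1 (limma, adjusted p = 0.000462) and -0.68 for HK1 (limma, adjusted p = 0.000212). For LDHA it was 0.47 (limma, adjusted p = 0.0194), which is a log2 change of 0.15 in L-428 and -0.32 in L-1236. ANKRD37 differed by -0.50 (limma, adjusted p = 0.00182), with log2 changes of -0.63 in L-428 and -0.13 in L-1236, where it had 7.39, 7.22 and 7.34 in tGFP/EBF1 cells, against 7.43, 7.51 and 7.40 in tGFP cells.

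For the other called genes a difference between the lines was not shown. HIF1A differed by 0.38 (limma, adjusted p = 0.0719), BNIP3L by 0.29 (limma, adjusted p = 0.161) and EPAS1 by 0.22 (limma, adjusted p = 0.329). P4HA1, called in L-428 alone, had 8.38, 8.74 and 8.74 in L-1236 tGFP/EBF1 cells, against 8.82, 8.83 and 8.99 in L-1236 tGFP cells. Its difference was -0.12 with a 95% interval from -0.43 to 0.19 (limma, adjusted p = 0.77). The difference for LDHA was no longer called without replicate 1 of L-428 tGFP/EBF1 (0.44, limma, adjusted p = 0.0636) or replicate 1 of L-1236 tGFP (0.43, limma, adjusted p = 0.0591).

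The control cells show the levels from which these changes started. Comparing L-428 tGFP with L-1236 tGFP, 15 of the 35 genes were higher in L-428, 6 were lower and 14 were not called. The lines differed widely in all genes, with 26.1% of rows called higher and 21.7% lower, and 4.16% and 3.04% at a 2-fold difference or more. With dim rows left out, 5025 rows were called higher and 3741 lower, of fewer rows tested. Most of the 35 genes are bright rows, so the shares over all rows are no close measure for them. Among the 35 genes, 1 passed the 2-fold limit upward and 2 downward. This comparison uses the same tGFP arrays as the EBF1 comparisons, so a control array that lies high or low moves both.

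The phosphofructokinase step differed in its isoforms. PFKP had 10.60, 10.54 and 10.40 in L-428 tGFP cells, against 9.64, 9.62 and 9.53 in L-1236 tGFP cells (log2 difference 0.92, limma, adjusted p = 1.21e-09). PFKL had 9.70, 9.70 and 9.47 in L-428 tGFP cells, against 9.01, 8.96 and 8.92 in L-1236 tGFP cells (log2 difference 0.66, limma, adjusted p = 8.19e-08). PFKM went the other way, at 0.91 lower in L-428 (log2 difference -0.91, limma, adjusted p = 5.26e-09). PFKFB3, the kinase that makes the phosphofructokinase activator, had 8.82, 8.74 and 8.65 in L-428 tGFP cells, against 7.70, 7.72 and 7.60 in L-1236 tGFP cells, a 2.09-fold difference (limma, adjusted p = 2.52e-10). PFKFB4 was lower in L-428 by a smaller amount, with a log2 difference of -0.27.

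ALDOC, an aldolase isoform known from brain, had the largest baseline difference of the 35 genes. It had 7.34, 7.27 and 7.49 in L-428 tGFP cells, against 9.45, 9.20 and 9.19 in L-1236 tGFP cells, 3.77-fold lower in L-428 (limma, adjusted p = 1.16e-13). The common isoform ALDOA differed by 0.05 and was not called. HK1 was higher in L-428 by 0.41, as was GPI by 0.23, a call lost without replicate 2 of L-428 tGFP or replicate 3 of L-1236 tGFP and with quantile normalization, while HK2 and TPI1 were not called, at 0.12 and 0.16. The second row of TPI1 was 0.62 higher in L-428. For SLC2A1 the control arrays of the lines overlapped, with a log2 difference of -0.11 (95% interval -0.28 to 0.06). With quantile normalization SLC2A1 and SLC2A3 were both called lower in L-428.

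Lower glycolysis was higher in L-428 for 6 of its 9 genes. The log2 differences were 0.54 for PGAM1/PGAM4, 0.40 for ENO1, 0.34 for PDK1, 0.33 for PGK1, 0.26 for LDHA and 0.20 for ENO2. The LDHA and ENO2 arrays of the lines overlapped. Both calls were lost with quantile normalization, at an adjusted p of 0.01 and without replicate 2 of L-428 tGFP (limma, adjusted p = 0.0883 for LDHA and 0.188 for ENO2), which left 4 of these 6 calls, and ENO2 lost its call in 5 further alternatives besides the 2-fold limit. Over all alternatives the lowest log2 differences of the others were 0.37 for PGAM1/PGAM4, 0.27 for ENO1, 0.24 for PDK1 and 0.21 for PGK1. The interquartile range was 2.49, 2.47 and 2.28 on the L-428 tGFP arrays, against 2.28, 2.30 and 2.31 on the L-1236 tGFP arrays. The part of this spread in the differences of bright rows was not tested. GAPDH, PKM and LDHB lay between -0.01 and 0.18 and were not called. GAPDH is often used as a constant control, and here its log2 changes with EBF1 were -0.15 in L-428 and -0.09 in L-1236, both without a call.

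Of the factors and sensors, 3 of 5 were lower in L-428. EPAS1 had 6.84, 6.98 and 7.19 in L-428 tGFP cells, against 8.90, 8.91 and 8.72 in L-1236 tGFP cells, 3.58-fold lower (limma, adjusted p = 3.39e-13). In L-428 tGFP/EBF1 cells it had 6.91, 6.98 and 6.91, so that its L-428 arrays all lay below its L-1236 arrays. ARNT had 9.46, 9.45 and 9.18 in L-428 tGFP cells, against 10.04, 9.94 and 9.90 in L-1236 tGFP cells (log2 difference -0.60, limma, adjusted p = 8.64e-07). EGLN3 had 6.83, 6.71 and 6.94 in L-428 tGFP cells, against 7.24, 7.32 and 7.25 in L-1236 tGFP cells (log2 difference -0.45, limma, adjusted p = 2.04e-05). HIF1A differed by 0.03 and EGLN1 by -0.00, and neither was called, but with quantile normalization HIF1A was called lower in L-428.

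Of the 8 further HIF targets, 4 were higher in L-428 controls. These were ANKRD37 (log2 difference 0.91), BNIP3 (0.87), BNIP3L (0.67) and P4HA1 (0.54), all with arrays that did not overlap. Their EBF1 effects in L-428, a contrast that shares the L-428 tGFP arrays, were -0.63, -0.28, -0.19 and -0.39. BNIP3 had 10.11, 10.18 and 9.65 in L-428 tGFP cells, against 9.18, 9.12 and 9.03 in L-1236 tGFP cells. VEGFA, ADM, NDRG1 and KDM3A lay between -0.14 and 0.15 without a call, but with quantile normalization VEGFA was called lower in L-428.

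**Figure D3:**
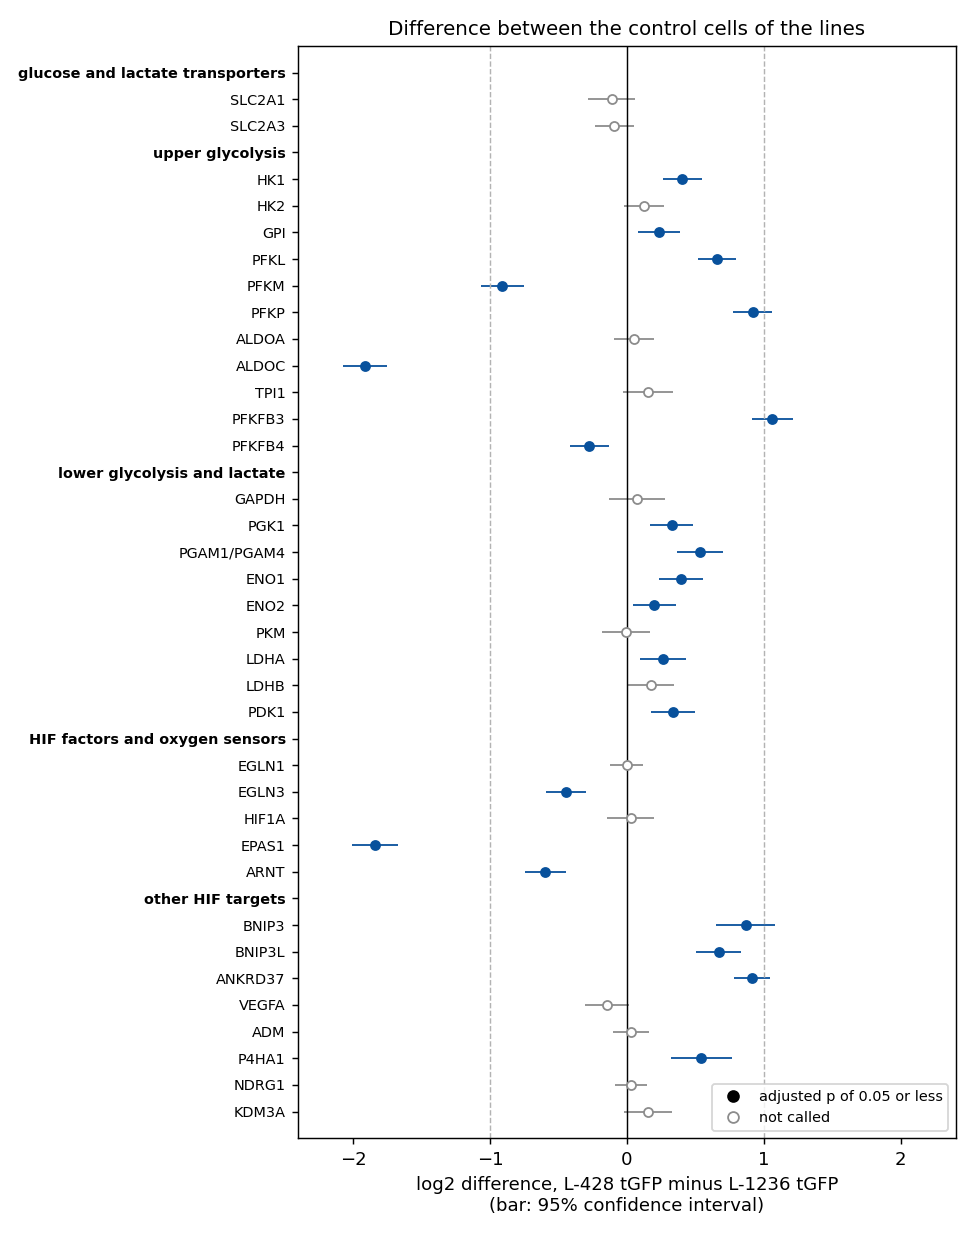
Log2 difference (horizontal axis) between L-428 tGFP and L-1236 tGFP cells for the 35 genes, ordered by role. Points are estimates from 3 arrays against 3, bars are 95% confidence intervals, filled points passed an adjusted p of 0.05, and dashed lines mark a 2-fold difference. PFKFB3 lies beyond the right line at 1.06, and EPAS1 and ALDOC beyond the left one at -1.84 and -1.91.

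To place the changes in the wider pathway, 95 measured genes of 103 on 6 further lists were examined. With EBF1 in L-428, 5 of the 95 were called higher and 3 lower, beside 2.62% and 1.72% of all tested rows. In L-1236, 10 were higher and 8 lower, beside 3.69% and 5.95% of all tested rows. In all, 8.42% of the 95 were called in L-428 and 18.9% in L-1236, beside 4.34% and 9.64% of all tested rows. Among 12 genes of pyruvate entry into mitochondria, 1 was higher with EBF1 in L-428, and 2 were higher and 1 lower in L-1236. PDK3, a kinase that blocks pyruvate dehydrogenase, rose in both lines, to 10.78 ± 0.054 in L-428 tGFP/EBF1 cells, against 10.26 ± 0.14 in L-428 tGFP cells, and to 11.02 ± 0.060 in L-1236 tGFP/EBF1 cells, against 10.46 ± 0.051 in L-1236 tGFP cells (SD, n = 3 each). The log2 changes were 0.53 and 0.56 (limma, adjusted p = 0.000102 and 2.24e-05). PDK2, of the same family, rose by 0.26 in L-1236, and MPC1, a subunit of the mitochondrial pyruvate carrier, fell by 0.28 there. Both were no longer called without replicate 3 of L-1236 tGFP or replicate 1 of L-1236 tGFP/EBF1, and PDK2 also without replicate 3 of L-1236 tGFP/EBF1, with adjusted p-values up to 0.130 for PDK2 and 0.0571 for MPC1 (limma).

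Among 31 further HIF targets, 2 rose and 3 fell in L-428, and 6 rose and 4 fell in L-1236, with medians of -0.04 and 0.02. BHLHE41, a transcriptional repressor of the circadian clock, had 8.27 ± 0.042 in L-428 tGFP/EBF1 cells and 8.64 ± 0.030 in L-428 tGFP cells, but 8.67 ± 0.075 in L-1236 tGFP/EBF1 cells and 8.20 ± 0.038 in L-1236 tGFP cells. P4HA2, the sister gene of P4HA1, had 10.02 ± 0.028 in L-428 tGFP/EBF1 cells and 10.46 ± 0.17 in L-428 tGFP cells, but 10.11 ± 0.12 in L-1236 tGFP/EBF1 cells and 9.69 ± 0.012 in L-1236 tGFP cells. Both fell in L-428 and rose in L-1236, and their effects differed by -0.84 (limma, adjusted p = 4.65e-06) and -0.86 (limma, adjusted p = 8.75e-05). TFRC, the transferrin receptor, fell by 0.56 and DDIT4, an inhibitor of mTOR signalling, by 0.42 in L-1236, against -0.04 and 0.10 in L-428. JMJD6 rose by 0.36 and AK4, a mitochondrial adenylate kinase, by 0.31 in L-428. AK4 lost its call without any 1 of 8 arrays (limma, adjusted p up to 0.198) and has a second row that changed by 0.07.

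Of 24 other genes of glycolysis and glucose transport, 1 rose in each line. In L-428, TIGAR, a phosphatase that lowers fructose-2,6-bisphosphate, rose by 0.38 (limma, adjusted p = 0.00506), and BSG, the chaperone of the lactate carriers, rose by 0.29 in L-1236 (limma, adjusted p = 0.0321), a call that was lost without any 1 of the 6 L-1236 arrays (limma, adjusted p up to 0.112). Of 9 other HIF regulators none was called by limma in L-428, where 1 was higher at an unadjusted p under 0.05 and the median was -0.05, and 2 fell in L-1236, where the median was -0.19. The 2 were CITED2, which competes with HIF for its coactivators (log2 change -0.33, limma, adjusted p = 0.00897), and SIAH2, a ubiquitin ligase for prolyl hydroxylases (-0.19, limma, adjusted p = 0.0444). SIAH2 lost its call without any 1 of 10 arrays (limma, adjusted p up to 0.198) and CITED2 without replicate 1 of L-1236 tGFP (limma, adjusted p = 0.0526). None of 6 pentose phosphate genes was called by limma in either line, and at an unadjusted p under 0.05 1 of them was lower in each line. Of 13 citric acid cycle genes, DLST, a subunit of the oxoglutarate dehydrogenase complex, rose in L-428 by 0.34 and in L-1236 by 0.44, and SDHA, a subunit of succinate dehydrogenase, fell by 0.21 in L-1236. SDHA lost its call without any 1 of 9 arrays (limma, adjusted p up to 0.165). DLST lost its call in L-428 without replicate 3 of L-428 tGFP or replicate 1 or 3 of L-428 tGFP/EBF1 (limma, adjusted p up to 0.0970).

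**Figure D4:**
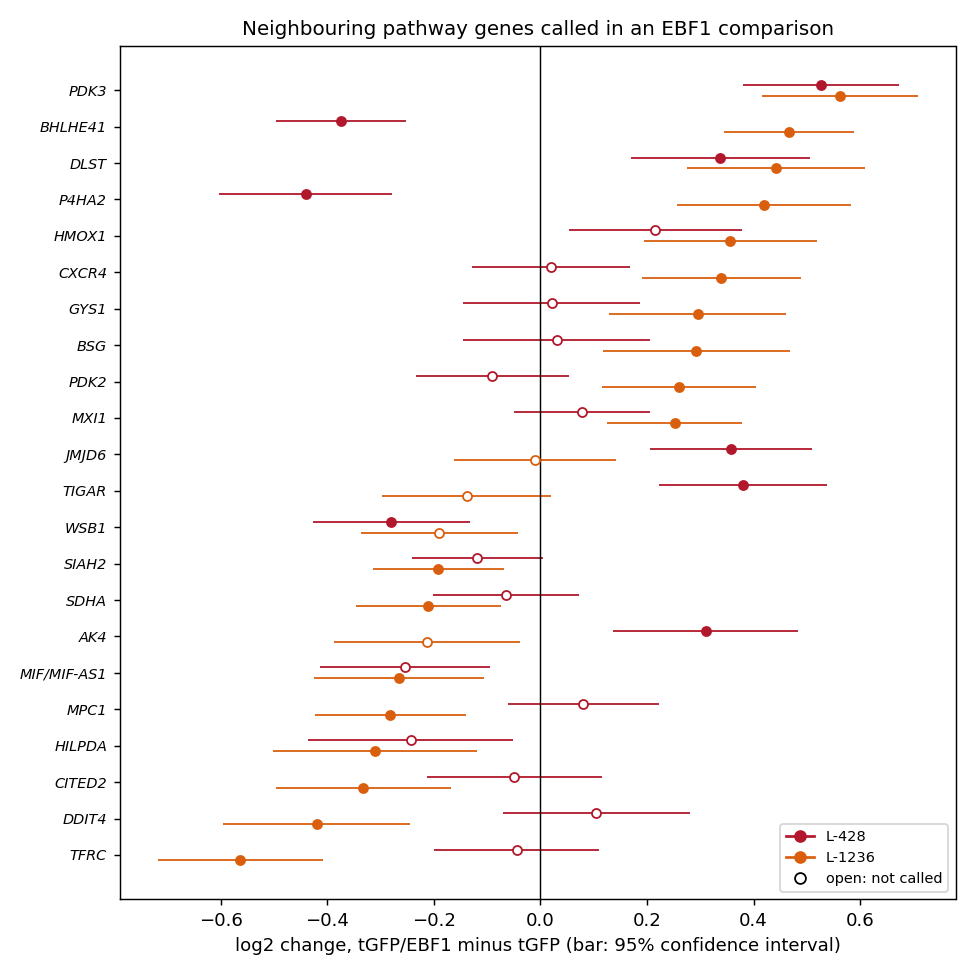
Log2 change (horizontal axis) with EBF1 against tGFP for the 22 genes of the 6 further pathway lists called in either line, in L-428 and L-1236. Points are estimates from 3 arrays against 3, bars are 95% confidence intervals, and open points were not called. PDK3 and DLST lie right of 0 in both lines, and BHLHE41 and P4HA2 lie left of 0 in L-428 and right of 0 in L-1236.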

How the data were processed

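RNA of sorted cells was hybridised to 12 arrays, 3 in each of 4 groups. The table holds 1 log2 value per row and array as the authors deposited it, and the sources used here do not give their summarization and normalization. Rows were named by the platform annotation. Of 32321 rows, 19158 had 1 symbol, 1388 several and 11775 none, and the 20546 with a symbol were tested as deposited, with lmFit and eBayes of limma 3.58.1 (R 4.3.3; 4 group means, no block, 8 residual and 9.98 prior degrees of freedom) and Benjamini-Hochberg adjustment over all of them in each contrast. Calls used an adjusted p of 0.05 and, as a second count, the 2-fold limit that the design text states. Intervals are at 95% and the median SE of a log2 change was 0.069. The number of arrays limits the precision.

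Arrays with the same replicate number did not regularly deviate together (correlations of deviations from the group means 0.23, -0.21 and -0.020 in L-428, 0.28, -0.074 and 0.19 in L-1236). For unlike numbers the correlations ran from -0.28 to 0.31 in L-428 and from -0.35 to 0.26 in L-1236. With 3 arrays per group these values do not settle whether arrays were paired. No block was used, and a replicate block was tried as an alternative.

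Values on every array are given for genes called in an EBF1 contrast or in the difference of effects and for the 6 largest baseline differences each way, and up to 4 called genes per pathway list and EBF1 contrast are named. The values of BNIP3 in the EBF1 contrasts were added after its values were seen. Genes and lists were chosen with earlier results of these data known. On simulated arrays of 20546 rows, 82% of rows changed 1.25-fold were called in L-428 and 74% in L-1236, and 100% of those changed 1.5-fold in either line. In the simulation each row varied independently, without a shift of a whole array such as replicate 3 of L-428 tGFP shows. These shares therefore do not give the power on the real arrays, and a gene not called may still have changed. Promoter windows came from the RefSeq table of GRCh38.p14. Alternatives were quantile normalization, median centring, other row filters, trend and robust variance, array weights, fits of 2 groups, a replicate block, other thresholds and leaving out arrays. Promoter scans and plots were made in Python 3.11.15, the plots with matplotlib 3.10.9.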

Additional observations from a re-analysis of the deposited data

Results flagged for a closer look

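The effect of EBF1 differed between the lines for 5 of the 35 genes, by limma's test of the difference of effects (L-428 minus L-1236, on the log2 scale). The differences were -0.85 for PFKM, -0.76 for SLC2A1, -0.68 for HK1, -0.50 for ANKRD37 and 0.47 for LDHA. PFKM, SLC2A1, HK1 and ANKRD37 passed in all alternatives tried except the added 2-fold limit.

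Of the 95 pathway genes measured, 11 (11.6%) differed in the same test, 8 with a positive and 3 with a negative difference, beside 3.38% and 1.79% of all tested rows. P4HA2 differed by -0.86, BHLHE41 by -0.84, DDIT4 by 0.52, AK4 by 0.52, TIGAR by 0.52, TFRC by 0.52, JMJD6 by 0.37, MPC1 by 0.36 and PDK2 by -0.35. The calls of AK4 and DDIT4 were lost with median centring (limma, adjusted p = 0.0544 and 0.0542). The second row of AK4 differed by 0.20 and was not called. JMJD6, MPC1 and PDK2 passed with adjusted p-values of 0.0440, 0.0328 and 0.0432 (limma), and each was lost without any 1 of 7 to 9 single arrays. VHL, the ubiquitin ligase subunit that binds hydroxylated HIF alpha, differed by 0.39 (limma, adjusted p = 0.0227), and BPGM, which makes 2,3-bisphosphoglycerate, by 0.35 (limma, adjusted p = 0.0365). These 2 fall outside the rule for named genes and were named after their values were seen, and their calls were lost without any 1 of 5 and 8 single arrays. Groups of 3 arrays are too small to test for outlying arrays.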

How the results depend on the processing

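The count of called genes in L-428, 2, was the least settled. The count was 6 with quantile normalization, 1 higher and 5 lower, with LDHA among the 6. Array weights, whose estimation stopped before its convergence tolerance, gave 11, of which 1 was higher and 10 lower. Without both arrays that stand apart it was 8, all lower. It was 1 with median centring, with every row tested, with trend and robust variance, with a replicate block or at an adjusted p of 0.01. Leaving out single arrays gave 1 to 7, and the 7 came without replicate 3 of L-428 tGFP. Over all rows, 703 were higher and 1281 lower in L-428 without both arrays, and 464 and 843 without that replicate alone, beside 538 and 354 with all arrays. In L-1236 they were 1222 and 1418 without both arrays and 1103 and 1795 without that replicate, beside 759 and 1222, and the differences of effect were 784 and 1113, and 701 and 756, beside 694 and 367. In L-1236 the 8 calls became 22 with array weights and 5 at an adjusted p of 0.01, and 5 to 13 without single arrays, the 5 without replicate 1 of L-1236 tGFP and the 13 without replicate 3 of L-428 tGFP. The 5 differences of effect became 8 with quantile normalization and 11 with array weights, and 4 to 7 without single arrays. The 21 baseline calls stayed between 18 and 25 without single arrays and fell to 3 with the 2-fold limit, which left 0 in the other 3 comparisons. With quantile normalization the baseline split was 12 higher and 10 lower, against 15 and 6. GPI, LDHA and ENO2 were then no longer called, and HIF1A, SLC2A1, SLC2A3 and VEGFA were called lower in L-428. The replicate block gave 1, 8, 5 and 21 calls in the 4 comparisons. It ended the call of P4HA1, and whether the numbers pair the arrays is not settled. Quantile normalization and median centring moved the median change of all rows by 0.058 at most, in the baseline comparison with median centring. Counts over all rows moved too: quantile normalization gave 964 higher and 650 lower in L-428, 1445 and 1618 in L-1236 and 1092 and 773 for the difference, and median centring 345 and 153, 569 and 792, and 401 and 198. Array weights gave 1093 and 1564 in L-428 and 4176 and 4574 in L-1236. The causes of these shifts were not tested.

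For the 36 called results on single genes of the set, 742 of 823 alternatives kept direction and call, 81 kept direction only and 0 turned the sign. Many alternatives could not turn the sign, because they leave the estimate itself unchanged. These are the row filters, the variance settings, the fits of 2 groups, the replicate block, the thresholds, and leaving out arrays of groups not compared. The totals are therefore no measure of how stable the estimates are. P4HA1 in L-428 lost its call in 14 of 23. LDHA lost its call in L-1236 (limma, adjusted p = 0.0676) and for the difference (limma, adjusted p = 0.0758) with median centring. PFKFB4 and EPAS1 lost theirs in L-1236 when every row was tested (limma, adjusted p = 0.0562 and 0.0606). The baseline call of GPI was lost in 5 of 23. For the 30 named results of pathway genes, 520 of 679 kept their call and 159 kept direction only. The 3 arrays in each group limit the precision of every value.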
